A study of Mus musculus with 16 samples.

Results

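The 8 livers described here are the vehicle-treated animals of a study of 16 mice with MASH, short for metabolic dysfunction-associated steatohepatitis, in which a liver laden with fat becomes inflamed and scars. They were chosen by their label alone, and all 760 genes of the panel were taken. The other 8 mice, dosed with EVT0185, were not used. All 8 vehicle mice were male C57BL/6J, housed at 29 °C in the thermoneutral range, and fed a diet in which fat, mostly from palm oil, gave 40 kcal% and fructose 20 kcal%, with cholesterol at 0.02%. Their vehicle was 1.5% CMC (carboxymethyl cellulose) with 0.2% Tween-20. The sources used here do not give the age, the route or length of dosing, or whether the mice were fasted. The study holds no mice on a control diet, so no value below says what the diet changed. The labels number the animals as biological replicates 1 to 8, and these numbers are used here.

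Total liver RNA was measured on the nCounter Fibrosis Panel, on which a pair of probes marks each RNA molecule of a gene with a fluorescent barcode that is then counted without amplification. A molecule is counted once whatever its length, so a count has no length to be divided by, but probes of different genes may capture their targets with different efficiency. A level below is a normalized count, 2 to the power of the deposited log2 value, and a rank compares genes as this panel counts them. In bulk liver, fewer cells of a type and less RNA per cell cannot be told apart. The liver is made up mostly of hepatocytes, which secrete apolipoproteins, clotting factors and complement, make and burn fat, and raise acute phase proteins when inflammatory cytokines reach them. Kupffer cells and recruited macrophages, endothelial cells and stellate cells make up most of the rest. Stellate cells lay down fibrillar collagen when they turn into myofibroblasts, the step that scars a MASH liver.

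Recovered total counts ran between 1470453 and 1850800 per animal, and no 2 animals had like counts (chi-square per degree of freedom at least 39.2 in the 28 pairs). Animals 7 and 3 stood apart. Of the 613 genes with a mean of at least 20, animal 7 had the lowest of the 8 values for 240 genes (39.2%) and animal 3 the highest for 192 (31.3%), where an even spread would give 12.5%. These are values as deposited, in which animal 7 also had the lowest median. That median was 7.62 on the log2 scale, with the others between 7.88 and 8.06. Animal 4, which had the fewest counts, was lowest for 119 (19.4%). Values without animals 3 or 7 are given beside the results that rest on them most. Markers of the labelled tissue were present: all 15 hepatocyte genes passed the floor of 20, with a median of 25116. Macrophage, endothelial and stellate cell markers were measurable, with medians of 212, 135 and 61.9 over the members above the floor. Of 17 T and NK cell markers 14 were under the floor, among them Cd3e at 13.7 ± 4.2 (SD, n = 8), as were Adipoq and Lep, which mark adipose tissue. The third panel gene of that list, Fabp4, which macrophages also express, was above it at 367.

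The counts were dominated by a few secreted and metabolic gene products of hepatocytes. The 10 highest genes held 50.2% ± 2.29 of all counts (SD, n = 8; 46.2% to 53.1%), and the 50 highest held 77.6% to 80.6%. The highest was Apoa2, an apolipoprotein of high-density lipoprotein, at 181381 ± 24289. It ran from 155025 in animal 3 through a median of 179502 to 224080 in animal 7, and alone took 10.7% ± 1.28 of the counts. Scd1, the desaturase that makes oleate from stearate, came next at 157467 ± 30840. Animal 3 had its lowest value, 107988, and animal 5 its highest, 197993, around a median of 164798. Apoa1, the main protein of high-density lipoprotein, averaged 125765 ± 21184. The ranges of these 3 genes over animals overlapped, with the highest Apoa1 value, 172314 in animal 6, above the lowest values of both others. The means of Apoa2 and Scd1 differed by less than either SD.

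Below them lay Apoc3, an inhibitor of lipoprotein lipase, at 79337 ± 12891 and Cyp2e1, a cytochrome P450 that oxidizes ethanol and fatty acids, at 63842 ± 13020. Their means differed by more than either SD, while their ranges, 62935 to 105321 for Apoc3 and 47052 to 89871 for Cyp2e1, overlapped. The fibrinogen chains Fgb and Fga lay side by side at 48537 ± 14180 and 48532 ± 21646, and the third chain, Fgg, was 14th at 27149 ± 9041. The class I histocompatibility gene H2-Q10 (36504 ± 5649), the alcohol dehydrogenase Adh1 (35879 ± 3891) and catalase, Cat (34829 ± 3544), which breaks down hydrogen peroxide, filled ranks 9 to 11. Apoa4, an apolipoprotein of triglyceride-rich particles, complement C3 and plasminogen, Plg, were also among the 15 highest, with means of 30797, 29795 and 25116.

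**Figure D1:**
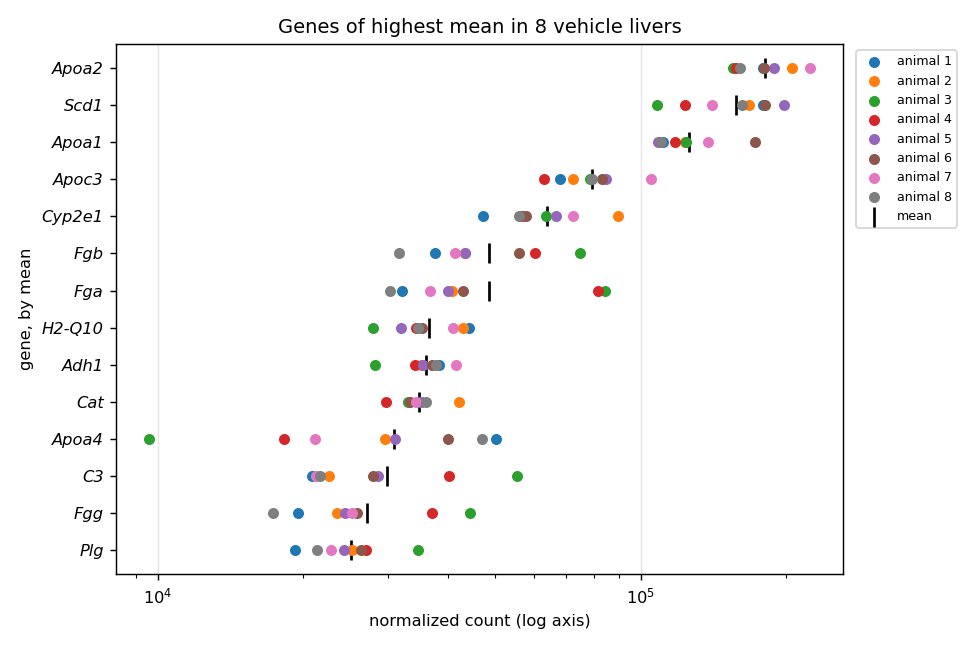
Normalized count (log axis) of genes among the 15 with the highest mean, one point per vehicle animal and a black bar for the mean. Apoa4 spreads widest, with animal 3 at 9607 and animal 1 at 50130, and animals 3 and 4 lie highest for Fga.

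Few genes were that abundant. The first 27 genes had 5-digit means or higher, 132 had 4-digit means, 282 lay between 100 and 1000 and 172 between 20 and 100, while 147 were under 20 and 7 of these under 5. The median over the 760 genes was 165. The lowest was Prap1 at 2.35 ± 2.7, with values of 0.865 to 8.9. No count was 0. At the floor of 20, Ptger4 (20.1), Fzd5 (20.2) and Grb10 (20.4) were just inside and Card9 (19.9), Ms4a4a (19.9) and Cyp1a1 (19.7) just outside.

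The genes of the scar and of inflammation given next lay below the first 27 genes, on both sides of the panel median of 165. The acute phase gene Saa1/2 stood higher, at 12868. Among interstitial collagens Col3a1 was highest at 578 ± 189 (rank 206), then Col14a1 at 366 ± 60.3, Col1a2 at 262 ± 86.9, Col6a3 at 196 and Col1a1 at 173 ± 97.4. The SDs of Col1a2 and Col1a1 are larger than much of the gap between them. Fibronectin, Fn1, which hepatocytes also secrete, stood far above these at 8979 ± 2485. Acta2, the smooth muscle actin of myofibroblasts, was at 46.4 ± 13.9. Tgfb1, the main fibrogenic cytokine, averaged 256 ± 29.7, and Timp1, an inhibitor of matrix proteases, 22.8 ± 8.61, close to the floor. The colony-stimulating factor receptor of macrophages, Csf1r, was at 593 ± 203 and Cd68, a lysosomal macrophage protein, at 331 ± 127. Of 13 chemokines and interleukins 4 were under the floor, Ccl4, Cxcl2, Il10 and Tnf, and the highest was Cxcl12 at 4156 ± 582.

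Most genes differed between these 8 animals by more than counting error. A chi-square test of each gene's whole counts, with expected counts in proportion to the sample's scaling, called 502 of 613 genes (81.9%) at a Benjamini-Hochberg adjusted p under 0.05. The share went with abundance, which sets the precision of a count. It was 89 of 172 genes (51.7%) with means of 20 to 100, 254 of 282 (90.1%) with means of 100 to 1000, and 159 of 159 above 1000. The median SD over animals was 0.27 on the log2 scale, of which counting alone gives 0.092. The excess SD, the part of the SD over animals that counting does not give, had a median of 0.23 and quartiles of 0.15 and 0.34. It was at least 0.5 for 55 genes, at least 1 for 4, and 0 for 31. No animal has a repeat measurement, so differences between animals and between measurement lanes cannot be told apart in it.

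Leaving out animal 7 lowered the called genes to 438 and the median excess SD to 0.17. Without animal 3 they were 479 and 0.22. The 4 genes with an excess SD of at least 1 were an acute phase gene, a pair of macrophage receptors and a lipid droplet gene.

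**Figure D2:**
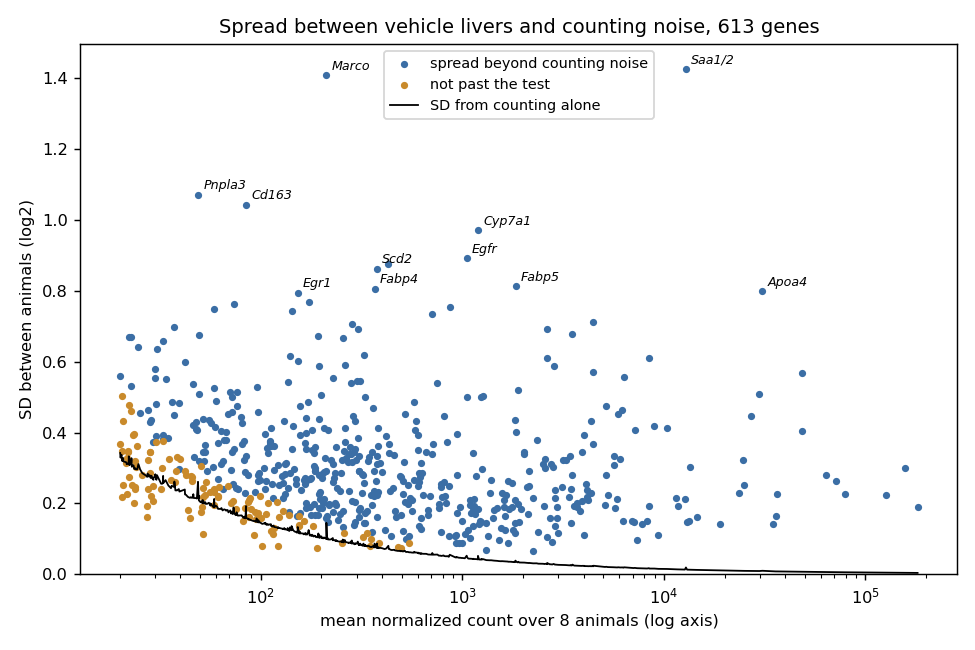
SD of the log2 value over 8 vehicle animals against the mean normalized count (log axis) for 613 genes, with the SD that counting alone gives as a line. Blue points passed the chi-square test (502) and orange points did not (111); genes among the 12 with the largest excess SD are named, from Saa1/2 at 1.43 to Egr1 at 0.78.

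Saa1/2, a probe shared by both inducible serum amyloid A genes, spread most, with an excess SD of 1.43. It was lowest in animal 6 at 2897, had a median of 5935 and reached 22183 in animal 3 and 48625 in animal 4, 16.8 times the lowest. The macrophage scavenger receptor Marco was close behind at 1.40. Its values ran from 39.1 in animal 2 through a median of 103 to 372 in animal 7 and 771 in animal 3, and the excess SD was 1.03 without animal 3. Cd163, the haemoglobin scavenger receptor of macrophages, ran from 19.5 in animal 1 to 226 in animal 3 with a median of 60.1 (excess SD 1.03, and 0.81 without animal 3; adjusted p = 7.03e-73 in the chi-square test). Animal 3 was the highest of the 8 for both receptors.

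Pnpla3, a lipid droplet protein tied to fatty liver in humans, was lowest in animal 3 at 9.95, which is under the floor, and highest in animal 1 at 90.6, around a median of 52.9 (excess SD 1.04, and 0.72 without animal 3). Cyp7a1, whose enzyme sets the rate of bile acid synthesis, was at 243 in animal 4, against a median of 1177 and a highest value of 1851 in animal 2 (excess SD 0.97). The growth factor receptor Egfr was at 3322 in animal 3, while the other animals lay between 411 and 977. Without animal 3 its excess SD was 0.44 in place of 0.89.

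Scd2 and the fatty acid binding protein gene Fabp5 were both highest in animal 6, at 945 and 4175, over medians of 246 and 1593. Fabp4, the binding protein of adipocytes and macrophages, was highest in animal 1 at 794 and lowest in animal 4 at 132. Apoa4 was at 9607 in animal 3, 18261 in animal 4, and up to 50130 in animal 1, an excess SD of 0.80, and 0.56 without animal 3, at one of the highest levels of the panel. The immediate early gene Egr1, which responds within minutes to growth factors and to stress, was at 369 in animal 6, while its median was 107. Jun, the other immediate early gene of the panel lists, had its highest value, 560, in animal 8 and its lowest, 157, in animal 7. The part of tissue handling in these values was not tested.

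Among the 8 steadiest genes with means of at least 200 were Bcap31, Csnk2b, Ilk, Map2k1, Smad4, Csnk1a1 and Ube2d2a, with SDs of 0.066 to 0.088. They encode a protein of the endoplasmic reticulum membrane, a casein kinase, a subunit of another casein kinase and the integrin-linked kinase. The others encode a kinase of the mitogen cascade, the shared mediator of TGF-beta signals and a ubiquitin-conjugating enzyme. Of the 344 genes at that level 10 did not pass the test, among them Smad4 (350 ± 20, chi-square adjusted p = 0.346) and Ube2d2a (253 ± 15.1, adjusted p = 0.53). With a median-centring factor both passed the same chi-square test (adjusted p = 0.0194 and 0.0086), as did Ilk (4.63e-11) and Map2k1 (0.00241), so these calls depend on the scaling. Bcap31, Csnk2b and Csnk1a1 passed the chi-square test already as deposited (adjusted p = 0.000145, 0.00489 and 0.00137). For Bcap31 it was 1.09e-45 with the median-centring factor. The SDs above are those of the deposited values.

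Covariation was asked of every pair of the 613 genes. Pearson's r over the 8 log2 values was tested for 187578 pairs in an exact permutation test, two-sided, that took every pairing of the 8 values, with Benjamini-Hochberg adjustment over all pairs. None passed (0 called, 0%), and the smallest adjusted p was 0.236. At an unadjusted p under 0.05 there were 20655 pairs (11.0%), of which 14570 had a positive and 6085 a negative r. Spearman's rho gave 0 pairs after adjustment and 13705 (7.31%) before. The smallest p the test can give is 2e-05, reached by 15 pairs, and at least 94 would have to reach it for any to pass at that value. So each pair below is reported as one that did not pass over all pairs, and its adjusted p lies between 0.236 and 0.975. The median r over all pairs was 0.099, and 0.046 when each animal was first centred on its median.

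In the gene lists, the median r among members was highest for class II antigen presentation (0.75), basement membrane (0.67) and interstitial collagens (0.61), against 0.099 over all pairs. The respiratory chain (0.58), complement (0.58), acute phase (0.57), interferon response (0.56) and endothelial (0.50) lists followed. It was near 0 for matrix glycoproteins (-0.0012), chemokines and interleukins (0.027) and apolipoproteins (0.034). Of the 26 lists with at least 4 members tested, 20 lay above the median of all pairs. Leaving out animal 3 lowered the interferon list to 0.14, complement to 0.30, acute phase to 0.27 and macrophage markers, at 0.42 with all animals, to 0.19. The class II, basement membrane and collagen lists stood at 0.75, 0.68 and 0.68 without it.

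**Figure D3:**
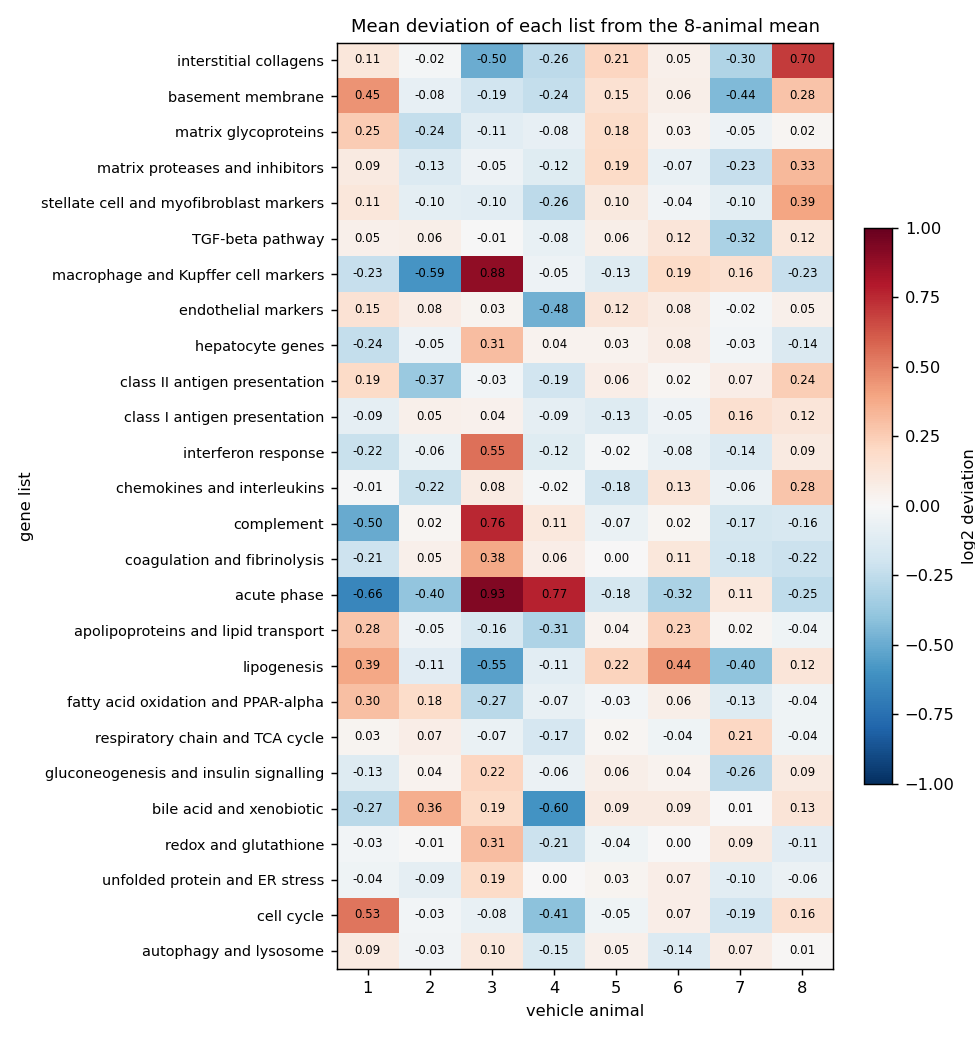
Mean log2 deviation of the tested members of each of 26 gene lists (rows) from the mean of the 8 animals, for each vehicle animal (columns); red is higher and blue lower. Animal 3 is high for acute phase (0.93), macrophage (0.88) and complement genes (0.76) and low for lipogenesis (-0.55) and collagens (-0.50), and animal 8 is highest for collagens (0.70).

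Class II histocompatibility molecules present peptides to CD4+ T cells and are carried by macrophages, dendritic and B cells. Their genes share a promoter box, the Y box, bound by the factor NF-Y, and are switched on by the co-activator Ciita. The class II list had the highest median r of the immune lists (0.75), so promoters of its chain genes are shown. They are given for 2 of the 3 genes, since none was available for H2-Ab1. Each runs from 250 bases before to 50 after the start site (RefSeq, GRCm38.p6), for H2-Aa at chr17:34287774-34288073 on the minus strand and for H2-Eb1 at chr17:34305617-34305916 on the plus strand. Capitals mark the Y box, searched as CTGATTGG on both strands, whose first base lay 51 and 62 bases before the start.
H2-Aa: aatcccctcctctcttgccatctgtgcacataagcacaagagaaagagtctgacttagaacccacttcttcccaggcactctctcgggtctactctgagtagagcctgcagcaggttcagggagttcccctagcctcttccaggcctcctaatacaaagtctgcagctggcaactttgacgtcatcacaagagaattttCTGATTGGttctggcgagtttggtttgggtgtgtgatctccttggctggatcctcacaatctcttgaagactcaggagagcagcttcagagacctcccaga
H2-Eb1: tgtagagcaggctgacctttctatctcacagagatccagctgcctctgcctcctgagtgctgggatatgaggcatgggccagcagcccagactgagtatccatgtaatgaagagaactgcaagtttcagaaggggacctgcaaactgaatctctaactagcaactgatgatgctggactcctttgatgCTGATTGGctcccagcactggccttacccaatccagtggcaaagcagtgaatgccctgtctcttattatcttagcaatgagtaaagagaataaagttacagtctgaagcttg
One or more such boxes were found in 4.10% of all 32851 mouse promoters of the same length and in 5.14% of the 700 that belong to panel genes. A match describes these letters and is no measured binding site.

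H2-Aa ran from 1196 in animal 2 through a median of 1562 to 1935 in animal 8. H2-Ab1, which encodes the partner chain of the same molecule, was at 607 in animal 2, with a median of 846 and a highest value of 1044 in animal 1. H2-Eb1 went from 557 in animal 2 over a median of 775 to 1012 in animal 8. In these values as deposited, animal 2 was the lowest, and animals 1 and 8 the 2 highest, for each of the 3. The top of this order depends on the scaling. With each animal centred on its median, the class II list was highest in animal 7 (0.40), then animals 8 (0.18) and 1 (0.15). It was still lowest in animal 2 (-0.40). Animal 2 also had the lowest mean deviation of the macrophage markers (-0.59), and the part of these cells in the class II values was not tested. H2-Ab1 had r = 0.96 with H2-Aa (rho 0.95, exact permutation p = 0.000124, adjusted p = 0.24), and 0.94 without animals 1 and 2, the farthest from its median. Its r with H2-Eb1 was 0.89 (rho 0.74, exact permutation p = 0.00506, adjusted p = 0.311), and 0.70 without animals 1 and 2. With Ciita r was 0.88, and 0.72 without them, but Ciita, at 23.7 ± 4.2, did not pass the chi-square test for spread beyond counting (adjusted p = 0.603).

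Interferon-induced genes are switched on by transcription factors that bind response elements with repeated GAAA letters. Here Isg15, Bst2 and Psmb8, the last of which is in the class I list, set animal 3 apart. Of the 10 genes in the interferon list, 5 shared a cluster, described below, that was highest in animal 3. Isg15, a ubiquitin-like protein, was at 648 in animal 3, while the other 7 lay between 180 and 318. Bst2, which tethers enveloped virus particles to the cell, was at 4422 in animal 3, against 2138 to 2653 in the others. Psmb8, a subunit of the immunoproteasome, was at 1218 in animal 3, against 498 to 761 in the others. The promoters of Isg15 (chr4:156200769-156201068, minus strand) and Bst2 (chr8:71537423-71537722, minus strand) are shown because both genes were set by that 1 animal. Capitals mark the core AAANNGAAA, searched on both strands, with overlapping matches starting 77, 71 and 65 bases before the start in Isg15 and 129 and 123 before it in Bst2.
Isg15: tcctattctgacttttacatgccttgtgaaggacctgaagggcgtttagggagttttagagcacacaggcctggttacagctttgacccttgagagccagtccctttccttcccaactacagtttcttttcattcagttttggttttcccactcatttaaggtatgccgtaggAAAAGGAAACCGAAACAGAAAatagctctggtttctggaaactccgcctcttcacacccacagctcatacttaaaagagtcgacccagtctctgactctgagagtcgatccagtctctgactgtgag
Bst2: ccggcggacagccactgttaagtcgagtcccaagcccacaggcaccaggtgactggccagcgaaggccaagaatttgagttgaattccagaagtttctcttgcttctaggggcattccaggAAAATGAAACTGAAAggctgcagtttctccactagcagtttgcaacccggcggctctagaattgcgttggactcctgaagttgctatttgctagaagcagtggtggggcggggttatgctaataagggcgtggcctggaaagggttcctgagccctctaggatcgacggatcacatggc
The Psmb8 promoter window had no match, and 10.6% of all promoters had at least 1.

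Isg15 correlated with Psmb8 at r = 0.95 (rho 0.57, exact permutation p = 0.00496, adjusted p = 0.31) and with Bst2 at 0.90 (rho 0.52, p = 0.0212 by exact permutation, adjusted p = 0.382). Without animals 1 and 3, r was 0.27 with Psmb8 and -0.65 with Bst2, so both relations rest on those animals. Excess SDs without animal 3 were 0.24 for Isg15, 0.17 for Psmb8 and 0.12 for Bst2, where they had been 0.54, 0.36 and 0.31.

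The acute phase list, with 4 tested members, had its highest mean deviations in animals 3 (0.93) and 4 (0.77). In animal 4, Saa1/2 was at its highest and weighed most in that mean. The fibrinogen chains and C3, which are in the coagulation and complement lists, also had their highest values in animals 3 and 4. Those 2 lists as a whole averaged 0.38 and 0.76 in animal 3, and 0.064 and 0.11 in animal 4. Fga was at 84367 and 81439 in these animals, while the other 6 lay between 30295 and 42810. Fgb was at 74999 and 60329 in them, Fgg at 44319 and 36942, and C3 at 55383 and 40063, in each case the 2 highest values. The 3 fibrinogen chains, which are assembled into 1 molecule, varied closely together. Fga and Fgg had r = 0.97 (rho 0.90, exact permutation p = 0.000397, adjusted p = 0.259), and 0.91 without animals 3 and 4. Fga and Fgb had r = 0.92 and 0.92 without these animals, and Fgb and Fgg 0.95 and 0.87.

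Saa1/2 also was highest in animals 3 and 4, yet its r with Fga of 0.81 (rho 0.33, exact permutation p = 0.0279, adjusted p = 0.402) was -0.32 without them, and its r with C3 of 0.71 was -0.34. Its highest r were with P4hb, a protein disulfide isomerase (0.86, and 0.67 without animals 3 and 4), and Il1r1, an interleukin-1 receptor (0.86, and 0.03). Its lowest r was with Smad2, a mediator of TGF-beta signals, at -0.98 (rho -0.98, exact permutation p = 9.92e-05, adjusted p = 0.236), and -0.91 without animals 3 and 4. With each animal centred on its median, this r was -0.77. Saa1/2 had r = -0.73 with the total count of the animal, and Acta2 and Cyp7a1 both had 0.71. The part of depth in these values was not tested. C-reactive protein, Crp, a minor acute phase gene in mice, was at 6587 in animal 3 and between 2831 and 3976 in the others (excess SD 0.35, and 0.15 without animal 3). It was at 3707 in animal 4, so it did not share the high value that Saa1/2 had there. Complement C8a and C8b, chains of the membrane attack complex, were highest in animal 3 at 5936 and 1651 and lowest in animal 1 at 1695 and 265.

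The macrophage list had its highest mean deviation in animal 3 (0.88) and its lowest in animal 2 (-0.59). Its members did not all vary together. Their median r was 0.42, and 71.4% of their 21 pairs had a positive r (57.4% over all pairs). Cd163, for example, was lowest in animal 1. Csf1r was lowest in animal 2 at 381 and highest in animal 3 at 1052, with a median of 550. Cd68 ran from 209 in animal 2 to 601 in animal 3, with a median of 312. Cd68 had r = 0.93 with Csf1r (rho 0.88, exact permutation p = 0.00131, adjusted p = 0.284) and 0.92 with the antibody receptor Fcgr4. Without animals 2 and 3 these were 0.76 and 0.73. Marco followed less closely, at r = 0.81 with Cd68 and 0.34 without animals 3 and 7. Marco and Cd163 had r = 0.52 (rho 0.31, exact permutation p = 0.189, adjusted p = 0.63), 0.26 without animals 3 and 7 and 0.057 without animal 3. The summed level of the 8 macrophage markers, 1 of them (Lgals3) under the floor, ran between 1002 and 3165.

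**Figure D4:**
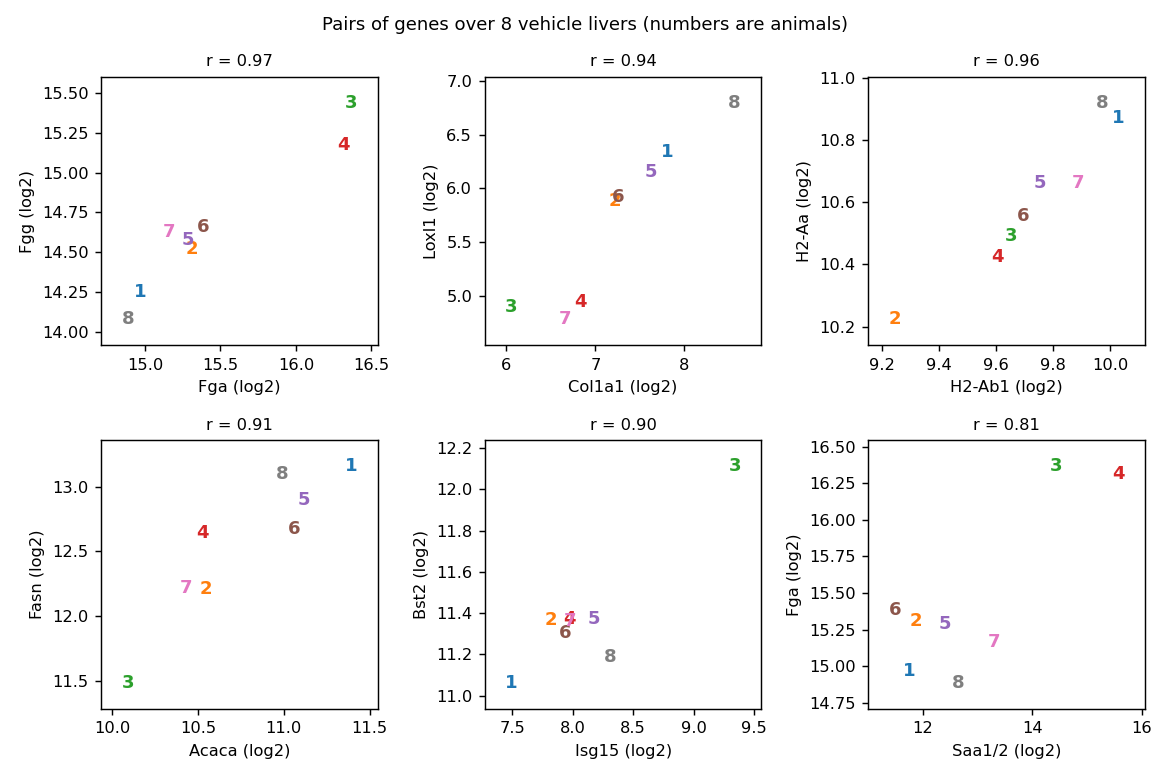
Log2 normalized counts of 6 pairs of genes over 8 vehicle livers, each number an animal. Fga with Fgg, Col1a1 with Loxl1, H2-Ab1 with H2-Aa and Acaca with Fasn spread along a line (r of 0.97, 0.94, 0.96 and 0.91). Animal 3 stands alone for Isg15 with Bst2 (0.90). Animals 3 and 4 lie highest both for Fga with Fgg and for Saa1/2 with Fga (0.81). Without them r was 0.91 for Fga with Fgg and -0.32 for Saa1/2 with Fga.

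Interstitial collagens had another order of animals, with animal 8 highest (mean deviation 0.70). Col1a1 ran from 66.7 in animal 3 through a median of 151 to 378 in animal 8, an excess SD of 0.76. Col1a2 and Col3a1, lowest in animal 3 at 169 and 345, were highest in animal 8 at 463 and 895. Loxl1, an enzyme that cross-links elastic fibres, was at 27.6 in animal 7 and 111 in animal 8, with a median of 59.8. Col1a1 had r = 0.94 with Loxl1 (rho 0.98, exact permutation p = 0.000372, adjusted p = 0.259), and 0.96 without animals 3 and 8. Its r was 0.95 with the gelatinase Mmp2 and 0.94 with Reln, a stellate cell glycoprotein, and without these animals 0.78 and 0.93. With the other chain of type I collagen, Col1a2, r was 0.93, and with Col3a1 0.89, and 0.82 and 0.73 without animals 3 and 8.

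All 21 pairs of the 7 interstitial collagens tested had a positive r (100%; 57.4% over all pairs). Acta2, by contrast, had r = 0.42 with Col1a1 (rho 0.29, exact permutation p = 0.306, adjusted p = 0.727), and 0.35 without animals 3 and 8. Acta2 was at 19.9 in animal 4 and between 36.9 and 60.3 in the others, counts at which sampling gives part of the spread. Its highest r, with the ubiquitin ligase subunit Skp1a, was 0.87 with all animals and 0.61 without animal 4. The stellate cell and myofibroblast list, with 7 of 8 panel members above the floor and a summed level between 1221 and 2041, had a median r of 0.28. It too was highest in animal 8 (0.39), and its part in the collagen values was not tested. Basement membrane genes were highest in animal 1, where Nid1, a linker of laminin to type IV collagen, was at 485 with a median of 243. Animal 7 was lowest for Nid1 (175) and Col4a1 (179), whose median was 291.

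The lipogenesis list was lowest in animal 3 (-0.55) and highest in animals 6 (0.44) and 1 (0.39). Fasn, the fatty acid synthase, was at 2868 in animal 3 and 9129 in animal 1, with a median of 6457. Acaca, which makes malonyl-CoA for it from acetyl-CoA, ran from 1092 in animal 3 to 2687 in animal 1, with a median of 1766. The pair had r = 0.91 (rho 0.86, exact permutation p = 0.00171, adjusted p = 0.285), and 0.79 without animals 1 and 3. Pnpla3 and Fasn had r = 0.92, and 0.70 without animals 3 and 7. Scd1 with Fasn was at 0.72, and 0.53 without animals 3 and 4. Srebf1, the transcription factor that drives these enzymes, was ordered otherwise. It was lowest in animal 1 at 1977 and highest in animal 3 at 3990, and its r with Fasn was -0.64 (rho -0.64, exact permutation p = 0.0911, adjusted p = 0.518). Without animals 1 and 3 it was -0.26, so the relation rests on those animals. The deposited values are of RNA, and the factor is activated by cleavage of its protein, which they do not show. The core TCACNCCAC of the sterol response element was not in the promoter windows of Fasn, Acaca, Elovl6 or Pnpla3, and was in 1.24% of all promoters.

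Apoa4 was, like Fasn and Acaca, lowest in animal 3 and highest in animal 1. It had r = 0.91 with Acaca (rho 0.88, exact permutation p = 0.00203, adjusted p = 0.288), 0.89 with Col1a1 and 0.87 with Fasn, and 0.83, 0.81 and 0.85 without animals 3 and 4. With Apoa1 r was -0.054. Its lowest r was with Sil1, a chaperone exchange factor, at -0.97 (rho -1, exact permutation p = 2.48e-05, adjusted p = 0.236), and -0.92 without animals 3 and 4, with values of Sil1 between 788 and 999. With each animal centred on its median, the r of Apoa4 and Sil1 was -0.62, so its size depends on the scaling. Spp1, osteopontin, which is secreted by cholangiocytes, macrophages and stressed hepatocytes, ran from 1043 in animal 3 through a median of 2774 to 4853 in animal 1. It had r = 0.94 with the cyclin Ccna2 (rho 0.93, exact permutation p = 0.000893, adjusted p = 0.274), 0.89 with Apoc2 and 0.88 with the fatty acid transporter Cd36, and -0.93 with C8a. Without animals 1 and 3 these were 0.89, 0.94, 0.59 and -0.82.

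Pck1, the enzyme that commits oxaloacetate to gluconeogenesis, was at 16344 in animal 3 and 11715 in animal 4, and between 4628 and 8571 in the other 6. Its lowest r was with the phospholipid transfer protein Pltp at -0.97 (rho -0.98, exact permutation p = 4.96e-05, adjusted p = 0.236), and -0.95 without animals 1 and 3. High r were found with Akt1 (0.93) and the proteoglycan gene Sdc3 (0.93), and these were 0.84 and 0.86 without animals 1 and 3. Fbp1, a later enzyme of the same pathway, was lowest in animal 2 at 2992 and highest in animal 7 at 7831, and r with Pck1 was 0.10, and -0.22 without animals 1 and 3. Cyp7a1 and Cyp8b1, which act in bile acid synthesis, were both lowest in animal 4, at 243 and 1861. Their r was 0.58, -0.23 without animals 1 and 4 and -0.48 without animal 4. The fatty acid hydroxylases Cyp4a10/31/32, 1 probe for near-identical genes, ran from 3310 in animal 8 to 10026 in animal 1. With Cyp4a12a, lowest in animal 8 at 1563 and highest in animal 2 at 7688, r was 0.70, and 0.086 without animals 1 and 8. Cyp4a10/31/32 reached an unadjusted p under 0.05 with 0.98% of the other genes, below the 11.0% over all pairs, and Apoa4 with 18.3%.

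Grouping the genes by their correlation, on values centred on each animal's median, gave 15 clusters of at least 8 genes that held 287 of the 498 genes that passed the test for spread and owed under 50% of their variance to counting. A cluster was chosen on these values and is described with no test, and its averages per animal are of these centred values. The cluster of 10 genes led by Acaca, Acacb, Apoa4, Spp1 and Nid1 held 5 of the 10 lipogenesis genes. It averaged -1.01 in animal 3 and 0.69 in animal 1. The cluster of 9 led by Col1a1, Lamc1, Loxl1, Reln and App held 3 of the 7 collagens and averaged 0.64 in animal 8. The cluster of 27 that included C3, Akt1, Hc and Serping1 among its leading genes held Pck1, Plg and the fibrinogen chains and averaged 0.72 in animal 3 and 0.56 in animal 4. The 22 genes led by Lgmn, Marco, Csf1r, Fpr1 and Fcgr4 averaged 0.64 in animal 3 and 0.55 in animal 7, and their median r in the values as deposited was 0.78, and 0.55 without animal 3. The 21 genes led by Crp, Psmb8, Isg15, Bst2 and C9 held 5 of the 10 interferon genes and 4 of the 11 complement genes. Their median r in the values as deposited was 0.80, and 0.39 without animal 3.

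The 2 largest patterns over all genes belonged to animals 3 and 7. The first principal component took 33.5% of the variance, with animal 3 at 9.96 and animal 1 at -6.34. Saa1/2, Marco, Cd163 and Egfr were among the genes of highest weight in it, and Pnpla3, Apoa4 and Col1a1 had the lowest weights. The second took 24.7%, with animal 7 at 10.5 and the other 7 between -2.85 and -0.71. The third took 14.8%, with animal 4 at 6.61 and animal 6 at -4.35.

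Animal 7 stood apart, low or high, for genes of several kinds. The respiratory chain and TCA cycle list had its highest mean deviation there (0.21 as deposited, and 0.53 with each animal centred on its median). Kmt2d, a histone methyltransferase, was at 57.3 in animal 7 and between 194 and 235 in the others. Crebbp, a histone acetyltransferase, was at 233 and between 518 and 609. Ndufb6, a subunit of respiratory complex I, was at 3865 in animal 7 and between 2422 and 2991 in the others. In the centred values the largest cluster, 47 genes led by Cox6a1, Ndufb6, Ndufa1, Psmd13 and Uqcrb, averaged 0.56 in animal 7. The 30 genes led by Crebbp, Kmt2d, Hcfc1, Kdm2a and E2f4 averaged -0.58 in it, also centred. Animal 7 had the lowest median, so centring raised its values, and both averages would be lower as deposited. The median r of these 30 genes in the values as deposited was 0.93, and 0.33 without animal 7. Kmt2d's excess SD was 0.66 with all animals and 0 without animal 7, and Crebbp's was 0.45 and 0.063.

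The genomic length of the gene in RefSeq (GRCm38.p6), known for 610 of the 613 genes, was set against each animal's deviation from the other 7 after removing the animal's median. Across genes, which are no independent replicates, Spearman's rho was -0.45 in animal 7 and between 0.035 and 0.24 in the other 7. With the genes split by length into 4 groups of 152 or 153, from shortest to longest, animal 7's median deviation was 0.26, 0.12, -0.10 and -0.30 on the log2 scale. In the values as deposited, with its median not removed, it held the lowest of the 8 values for 28.3%, 49.3% and 64.7% of the genes in the 3 longer groups, and for fewer in the shortest. Median lengths in them were 5.52, 19.5, 47.5 and 120 kb. Per the labels' protocol the integrity of the RNA was checked on a Bioanalyzer, but the sources used here give no values per animal, and their part in this pattern was not tested.

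**Figure D5:**
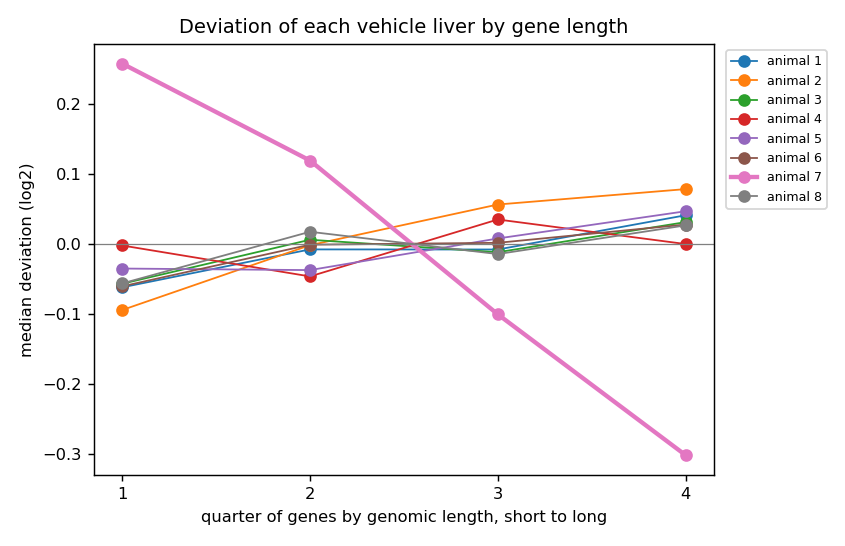
Median log2 deviation of each vehicle animal from the other 7, after removing its own median, in 4 groups of genes of about equal number ordered by genomic length. Animal 7 runs from 0.26 in the shortest group to -0.30 in the longest, while the other 7 stay between -0.094 and 0.078.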

How the data were processed

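Liver RNA of the 8 vehicle animals was analysed, without the EVT0185 animals. The authors used nSolver 4.0 for normalization by the global geometric mean, per the series' design text, and deposited log2 values of the 760 genes. No background subtraction is stated. Turned back from log2, every value (100%) was a whole number times a factor of its animal, to within 0.1 of a count, so whole counts and the factors (0.865 to 1.10) were recovered. The members, lists and tests were chosen with earlier results of these data known.

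The 613 genes with a mean normalized count of at least 20 were tested. Spread used a chi-square test of homogeneity (7 degrees of freedom). The excess SD is the square root of the log2 variance minus the mean counting variance. Pairs used exact permutation tests of Pearson's r and Spearman's rho. The permutation tests were two-sided. Adjustment was by Benjamini-Hochberg, and calls were made under 0.05. Named pairs also had r without the 2 animals farthest from the median of the first gene. P-values of the chi-square test set the spread between these 8 animals against counting error alone. Those of the permutation tests take the 8 animals as units. Neither kind takes in repeat measurements, which no animal has. Clusters came from average linkage on 1 minus r, at a height of 0.3. Of 35 gene lists, 26 had at least 4 members tested. Markers of neutrophils, B and plasma cells, dendritic and mast cells and cholangiocytes, adipose tissue, immediate early and clock genes had too few members and gave no list value, and none of the cholesterol synthesis list was on the panel here.

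Named were the 15 genes of highest mean, the 12 of largest excess SD, the 8 steadiest, 2 members per list, 12 anchor genes with their 3 highest and 1 lowest partners, and 5 leading genes per cluster. This gave 159 genes, and some are not reported here. Pairs within a pathway or list beyond these (for example among the fibrinogens), and the comparison with gene length, were chosen after values were seen. Of the 760 names, 758 matched a RefSeq symbol and 2 a synonym. The scripts were tested on simulated data. Tools were Python 3.11.15, numpy 2.4.6, scipy 1.17.1, pandas 2.3.3 and matplotlib 3.10.9. Alternatives were other scalings, floors, pseudocounts and statistics, and leaving out each animal.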

Additional observations from a re-analysis of the deposited data

Results flagged for a closer look

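A gene is listed here if its highest or lowest log2 value lay apart from the other 7. The gap, as a share of the whole log2 range, had to exceed Dixon's 95% critical value for 8 values. Chance alone passes that value for about 1 gene in 20. Over the 613 genes tested it was passed by 110 (17.9%), of which 70 were low in animal 7, 8 high in animal 7, 13 high in animal 3 and 8 low in animal 4. Named genes among them follow.

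Animal 7 was low, in normalized counts, for Kmt2d (57.3), Crebbp (233), Hcfc1 (153), Kdm2a (205), E2f4 (33.9), Creb1 (52.0), Notch1 (130), Furin (1837), Jak2 (110), Tjp1 (350), Rora (443), Ski (104) and the myosin kinase Mylk (312). It was high for Ndufa1 (3514), Ndufb6 (3865) and the proteasome subunit Psmd13 (1285).

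Animal 3 was high for the interferon-induced genes Isg15 (648), Bst2 (4422) and Psmb8 (1218), for Crp (6587), for Egfr (3322) and for Hmox1, the haem oxygenase (789, with the others between 181 and 298; excess SD 0.61, and 0.22 without animal 3). It was low for the class I gene H2-Q1, at 44.8, where the others lay between 110 and 239 (excess SD 0.73, and 0.43 without animal 3).

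Animal 4 was low for Acta2 (19.9), Cyfip1 (650) and the pyruvate carboxylase Pcx (3070). Animal 1 was low for Cyp2c29, at 5183 with the others between 8803 and 12020. Animal 2 was low for the alarmin Il33, at 7.62, which is under the floor. Animal 6 was low for the autophagosome protein Map1lc3a, at 410 with the others between 573 and 763.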

How the results depend on the processing

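No paired analysis was possible because only 1 group was analysed. The 10 highest genes were the same 10 by the median over animals, by share of total counts and without each animal in turn. Genes with spread beyond counting noise numbered 495 with a median-centring factor, 509 by total counts, 501 by a likelihood-ratio statistic, 413 of 441 at a floor of 100 and 509 of 760 with no floor, and 438 to 504 with an animal left out, lowest without animal 7. The median excess SD was 0.20 to 0.24 under the other settings and 0.17 to 0.24 with an animal left out. No pair passed after adjustment under any setting. Pairs at an unadjusted p under 0.05 numbered 13234 of 97020 at a floor of 100 and 13705 of 187578 by Spearman's rho, against 20655 of 187578, and 17353 to 20551 with an animal left out (settings added after seeing the data). Clusters of at least 8 genes numbered 13 to 20, and 16 to 22 with an animal left out.

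Of the 74 pairs examined, all but 3 kept their sign under these settings. The r of Cyp7a1 and Cyp8b1 was -0.071 by Spearman's rho and -0.481 to 0.784 with an animal left out. That of Apoa4 and Apoa1 was -0.575 to 0.0882, and that of Pck1 and Fbp1 -0.175 to 0.279. The causes were not tested. Of the 159 named genes, 25 lost and 6 gained their call for spread under at least 1 setting. Low counts limit the 172 genes with means of 20 to 100, of which 51.7% passed.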
